A study of Mus musculus with 4 samples.

Results

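The 10 genes described here mark the epithelial or the mesenchymal state of a cell, and they were measured in 4 lung tumours of KP mice. They were found as the rows of the combined table of raw counts whose symbol was Epcam, Cdh1, Cdh2, Vim, Fn1, Snai1, Snai2, Zeb1, Zeb2 or Twist1, which gave 10 of 39017 gene rows. All 4 tumours belong to 1 control group, with 1 library each, and carry the replicate numbers of the labels as tumours 1 to 4. The mice were C57BL/6 males that carried p53Fl/Fl, so that Cre recombinase removes p53 in the cells it reaches, beside a Cre-dependent oncogene allele. The labels add heterozygous fl/wt without naming the gene, and the deposited log2 table marks the same tumours as WT. Each mouse received 1500 viral units of lenti.PGK-Cre into the trachea, and tumours were taken 22 weeks and 5 days later; the age of the mice is not given in the labels. The PGK promoter is active in most cell types, so the cell in which a tumour began was not restricted by the vector. RNA came from whole dissociated tumours, which also hold immune and stromal cells, and in such bulk samples fewer cells of a type and less RNA per cell cannot be told apart. Nothing in the labels says whether the 4 tumours came from separate mice, so that p-values measure the spread between these libraries.

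In an epithelium, neighbouring cells are held together by E-cadherin (Cdh1), and the adhesion molecule Epcam sits on the same lateral membranes. In an epithelial-mesenchymal transition (EMT), transcription factors of the Snail (Snai1, Snai2), Zeb (Zeb1, Zeb2) and Twist (Twist1) families repress such genes by binding short E-box motifs, and cells gain N-cadherin (Cdh2), the intermediate filament vimentin (Vim) and the matrix protein fibronectin (Fn1). Fibroblasts, endothelial cells and leukocytes express several of the mesenchymal genes without any transition, which matters for RNA from a whole tumour.

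The level of a gene is given as CPM, its count per 1000000 after scaling each library by edgeR's TMM factors. Total counts lay between 8151613 and 8799007 per tumour. A level of 3 counts, taken as the upper 95% limit for a count of 0, corresponded to 0.330 to 0.370 CPM. Intervals and limits of this kind cover counting error only. Markers of alveolar type 2 cells, the surfactant-producing cells of the lung, were abundant in all tumours, with a summed CPM of 32860, 56510, 53160 and 60880 in tumours 1 to 4. Of the 10 members, 9 reached 1 CPM on average and were tested, and Twist1 had no count at all.

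The promoters of Epcam and Snai1 are shown because each holds the E-box that Snail and Zeb proteins bind, CAGGTG, or CACCTG on the other strand. The sequences are the 250 bases before the start site from RefSeq (GRCm38.p6), 5′ to 3′ along the gene, with these E-boxes in capitals.
Epcam, chr17:87635729-87635978, plus strand: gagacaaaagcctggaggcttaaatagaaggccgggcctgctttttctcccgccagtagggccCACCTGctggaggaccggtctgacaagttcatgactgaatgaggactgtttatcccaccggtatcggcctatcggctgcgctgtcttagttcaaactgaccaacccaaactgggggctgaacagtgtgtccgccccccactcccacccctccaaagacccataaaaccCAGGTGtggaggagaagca
Snai1, chr2:167537945-167538194, plus strand: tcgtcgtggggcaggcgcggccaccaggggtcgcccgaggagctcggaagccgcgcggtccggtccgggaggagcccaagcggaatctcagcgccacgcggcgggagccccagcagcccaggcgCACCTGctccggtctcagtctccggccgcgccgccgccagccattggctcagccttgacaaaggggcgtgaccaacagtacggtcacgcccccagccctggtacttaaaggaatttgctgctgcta
Epcam had 2 such E-boxes, which start at 187 and 19 bases before the start site, and Snai1 had 1, at 126 bases before it. Among 32851 promoters of this length 17.2% held CAGGTG or CACCTG, and 66.2% held the general form CANNTG, which includes them and reads the same on both strands. A promoter was found for 5 of the 10 members. None was available for Cdh1, Fn1 or Snai2, so their E-boxes are not known here, and those of Cdh2 and Zeb1 were not looked up. Neither motif occurred in the windows of Vim, Twist1 or any of 4 annotated starts of Zeb2. A match describes the letters only, and binding was not measured.

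On the mouse assembly GRCm38, Epcam (ENSMUSG00000045394) lies on chromosome 17 at 87635979 to 87651129, Cdh1 (ENSMUSG00000000303) on chromosome 8 at 106603351 to 106670246 and Cdh2 (ENSMUSG00000024304) on chromosome 18 at 16588877 to 16809246. Vim (ENSMUSG00000026728) lies on chromosome 2 at 13573927 to 13582826 and Fn1 (ENSMUSG00000026193) on chromosome 1 at 71585520 to 71653200. Snai1 (ENSMUSG00000042821) lies on chromosome 2 at 167538195 to 167542814, Snai2 (ENSMUSG00000022676) on chromosome 16 at 14705852 to 14709385 and Twist1 (ENSMUSG00000035799) on chromosome 12 at 33957671 to 33959829. Zeb1 (ENSMUSG00000024238) lies on chromosome 18 at 5591860 to 5775467 and Zeb2 (ENSMUSG00000026872) on chromosome 2 at 44983632 to 45117395. All are protein-coding genes. Stretches of 85 nt, the length of a read, that also occur in a transcript of another gene were found for 165 of 12332 stretches of Fn1 (Apol7d), 114 of 10692 of Zeb1 (Gm10125) and 267 of 20722 of Zeb2 (Zeb2os), and for none of the others. Apol7d, Gm10125 and Zeb2os are annotated on the opposite strand and had between 1 and 8 counts per tumour, and the strand setting of the counting is not given in the sources used here.

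By mean level per kilobase of the longest annotated transcript, the epithelial adhesion genes stood at the top. The EMT transcription factors and Cdh2 stood at the bottom. In CPM per kilobase the means over the tumours were 203 ± 79.2 for Epcam, 195 ± 5.08 for Cdh1, 102 ± 44.0 for Fn1 and 51.1 ± 15.04 for Vim (SD, n = 4). After these came a step down to 2.40 ± 0.802 for Zeb2, 2.33 ± 0.703 for Zeb1, 1.98 ± 3.44 for Cdh2, 0.900 ± 0.422 for Snai1 and 0.653 ± 0.0780 for Snai2 (SD, n = 4). Vim was above Zeb2 in 4 of 4 tumours, by 4.42 ± 0.30 on the log2 scale of CPM per kilobase (SD, n = 4), and Cdh1 was above Vim in 4 of 4. Cdh1 was above Fn1 in 4 of 4 tumours too, by 1.04 ± 0.63 on the same log2 scale. These 3 differences, like that of Cdh1 and Cdh2, had an exact two-sided sign-flip permutation p of 0.13, the smallest that 4 tumours can give, so no pair could pass 0.05.

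For the remaining neighbours in this order the difference was not of the same sign in all tumours. Epcam minus Cdh1 was 0.63, 0.20, -0.84 and -0.12 in tumours 1 to 4 on the log2 scale per kilobase (mean -0.03 ± 0.62, SD, n = 4), so that the order of these genes changed from tumour to tumour. Fn1 minus Vim reached 0.68 to 1.62 in tumours 1, 2 and 4 and was -0.02 in tumour 3 (mean 0.94 ± 0.76, SD, n = 4, exact permutation p 0.25), and it was 1.14 with the union of exons as length, above 0 in 4 of 4 tumours. Zeb2 and Zeb1 were nearly equal per kilobase, with a mean log2 difference of 0.03 ± 0.26 (SD, n = 4), and Zeb1 was then the higher if all annotated exons were taken as the length (-0.27). Snai1 minus Snai2 was 0.34 ± 0.73. Cdh2 took different places and was above Zeb1 in tumour 1. In tumours 2, 3 and 4 it was below all Zeb and Snail genes, with 0.360, 0.229 and 0.197 CPM per kilobase. In all, 10 pairs were compared.

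**Figure D1:**
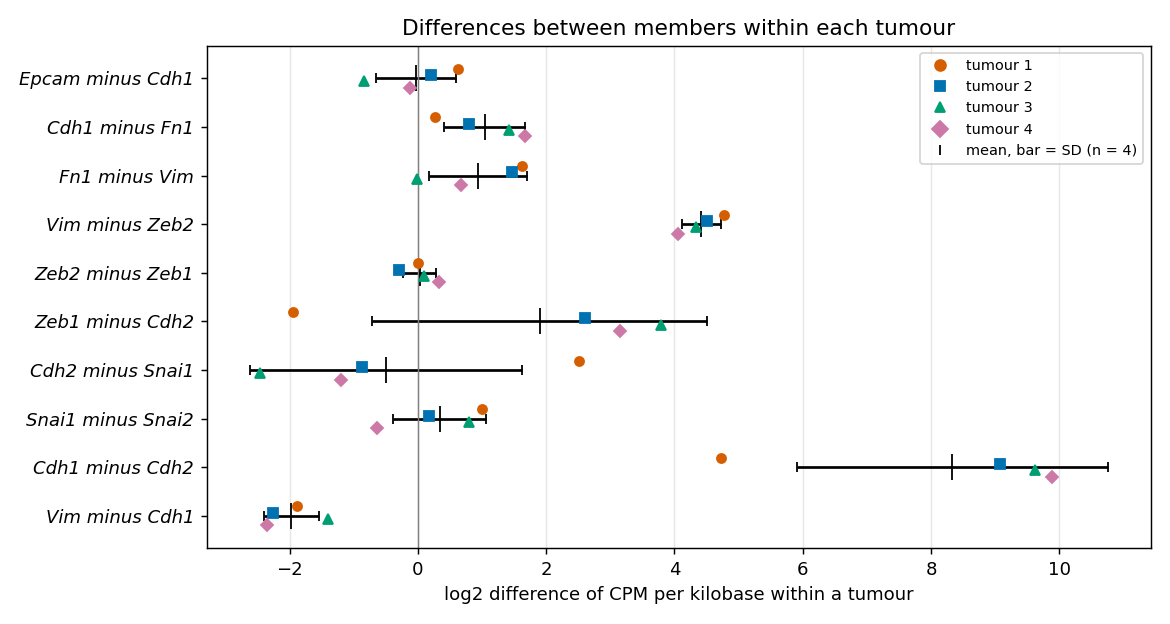
Log2 differences of CPM per kilobase between pairs of members within each of the 4 tumours (points), with their mean and SD (n = 4). The differences of Cdh1 over Cdh2 lie furthest to the right, with tumour 1 (4.73) well to the left of the other tumours (9.07 to 9.89).

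Whether a gene differed between tumours by more than the counting of reads allows was tested by a chi-square test of its 4 counts, adjusted over all genes tested. This was so for 7 of the 9 tested members, beside 76.7% of all 14225 genes tested, and the members' share is close to that background. The median SD of log2 CPM was 0.44 for the 9 tested members and 0.29 over all genes tested. Of these members, 5 were highest in tumour 3, where 30.2% of all genes tested were highest, 3 were highest in tumour 1 (31.4% of all genes) and 1 in tumour 2 (20.4%). In tumour 4, 5 of the members were lowest, where 17.7% of all genes tested were lowest, and 1, 2 and 1 members were lowest in tumours 1, 2 and 3 (30.4%, 19.4% and 32.5% of all genes tested). No member was highest in tumour 4, where 18.0% of all genes tested were highest. Several of these places rest on small differences. Cdh2 had 8 counts in tumour 4 against 9 in tumour 3, and Snai1 had 6 in tumour 4 against 9 in tumour 2. Zeb1 had 10.7 CPM in tumour 4 against 10.78 in tumour 1, and Snai2 had 12 counts in both tumours 3 and 4. Neither Snai1 nor Snai2 passed the test.

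**Figure D2:**
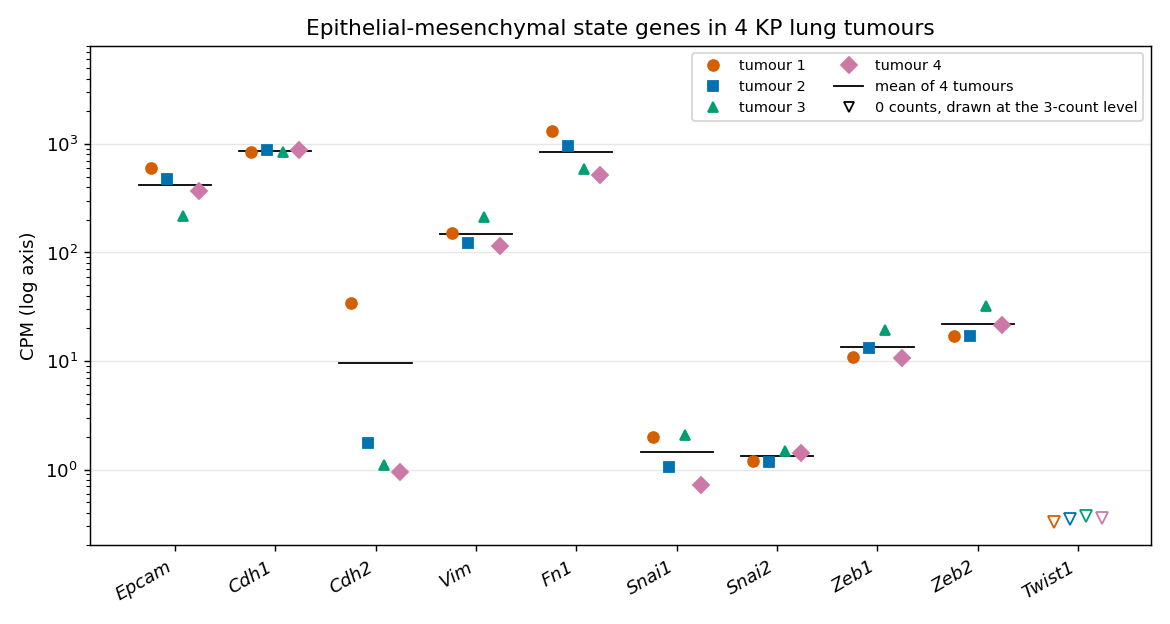
CPM of the 10 members in tumours 1 to 4 on a log axis, with the mean of the 4 tumours as a line; open triangles stand for 0 counts, drawn at the level of 3 counts. Cdh1 lies between 842 and 887.5 CPM in all tumours, whereas Cdh2 stands at 34.6 CPM in tumour 1 and does not exceed 1.74 CPM elsewhere.

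Cdh1, the cadherin of epithelial adherens junctions, was almost level across the tumours. Tumours 1 to 4 had 842, 887.5, 846 and 876 CPM (mean 863 ± 22.5, SD, n = 4), which rest on 6856 to 7649 counts each. The highest tumour exceeded the lowest by 1.05-fold (95% interval 1.02 to 1.09 from the counts). Its SD of log2 CPM, 0.04, ranked 10208 of the 10269 genes averaging 10 CPM or more, from the most to the least variable. Because so many reads were counted, even this small spread passed the test (chi-square 15.2, Benjamini-Hochberg adjusted p 0.00263), although not with library size as the only scaling (adjusted p 0.132).

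Epcam, which mediates adhesion between epithelial cells, did vary. Tumours 1 to 4 had 600, 470, 218 and 371 CPM (mean 415 ± 162, SD, n = 4). Tumour 1 was the highest and tumour 3 the lowest, 2.76-fold apart (95% interval 2.61 to 2.91 from the counts; chi-square 1592). Its SD of log2 CPM was 0.63, rank 816 of 10269, and without tumour 3 it was 0.35.

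Cdh2, the cadherin typical of neural and mesenchymal cells, was the member with the widest range. It had 314, 15, 9 and 8 counts in tumours 1 to 4, or 34.6, 1.74, 1.11 and 0.952 CPM. Tumour 1 lay far above the rest, and the other 3 tumours lay close together. Tumour 1 was 27.1-fold above the pooled counts of tumours 2 to 4 (95% interval 18.8 to 40.3 from the counts). The spread passed the test (chi-square 731, adjusted p 1.89e-156) and did not without tumour 1, where the SD of log2 CPM fell from 2.40 to 0.43 (adjusted p 0.374). The gap from tumour 1 to the next tumour made up 0.837 of the whole range on the log2 scale, above Dixon's 95% critical value for 4 values. In 5.86% of all genes tested 1 tumour stood apart in this way, and in 0.921% it was tumour 1 on the high side.

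Cdh1 exceeded Cdh2 in every tumour, tumour 1 included. Per kilobase, Cdh1 was 26.6 times Cdh2 in tumour 1 and 557, 833 and 1010 times Cdh2 in tumours 2, 3 and 4. On the log2 scale this difference was 8.33 ± 2.42 (SD, n = 4), and 9.53 without tumour 1.

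Other cadherins were listed to place Cdh2, a list made after its values were seen. Of 23 genes of the family, 9 averaged 1 CPM or more, and 10 had at most 3 counts in every tumour. All 9 varied beyond counting noise, and Cdh2 was the only one with a tumour apart. Cdh5, the endothelial cadherin, had 60.2, 48.7, 57.3 and 46.3 CPM in tumours 1 to 4, and Cdh11, found in mesenchymal cells, had 22.8, 18.9, 27.4 and 19.0 CPM. Neither was raised in tumour 1 as Cdh2 was. Cdh3, or P-cadherin, had 17.1, 7.32, 1.85 and 17.6 CPM, with its lowest value in tumour 3. Cdh16 was also lowest in tumour 3, with 21.6 CPM against 68.7 to 136 in the others. Among the scarce cadherins, Cdh10 had 13 counts in tumour 1 and 0 in each of the others.

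**Figure D3:**
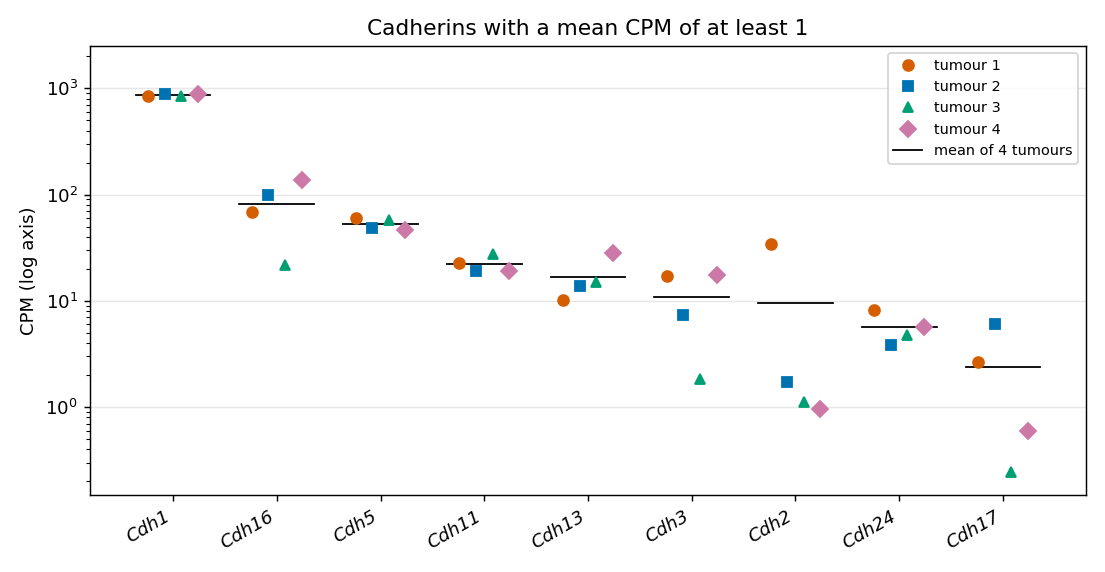
CPM of the 9 cadherins averaging 1 CPM or more in tumours 1 to 4 (points, log axis) and their mean (line). Cdh1 is the highest in each tumour, and Cdh2 shows 1 high value, 34.6 CPM in tumour 1.

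Fn1, which encodes the matrix glycoprotein fibronectin, was as abundant as Cdh1 in CPM, with 1314, 958, 593.5 and 518 CPM in tumours 1 to 4 (mean 846 ± 366, SD, n = 4). Tumour 1 was highest and tumour 4 lowest, 2.53-fold apart (95% interval 2.45 to 2.62 from the counts; chi-square 4090). The 7 tested fibroblast markers differed among themselves. The collagen genes Col1a1, Col1a2 and Col3a1 were highest in tumour 1 and lowest in tumour 4, like Fn1, and Col1a1 had 125, 66.9, 49.4 and 32.2 CPM in tumours 1 to 4. Dcn and Pdgfra were lowest in tumour 1 and highest in tumour 3, Pdpn was highest in tumour 3 and Lum in tumour 2. Their part in the values of Fn1 was not tested. For Fn1 the SD of log2 CPM was 0.62, rank 838 of 10269.

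Vim, the filament of mesenchymal cells and leukocytes, had 150, 123, 211 and 114 CPM in tumours 1 to 4 (mean 149.5 ± 44.0, SD, n = 4). Tumour 3 was highest, 1.86-fold above tumour 4 (95% interval 1.72 to 2.01 from the counts; chi-square 322, adjusted p 3.91e-68). Without tumour 3 its SD of log2 CPM fell from 0.40 to 0.21. Vim and Fn1 thus had their highest values in different tumours, and neither followed Cdh2 in having 1 tumour apart.

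Among the transcription factors, the Zeb genes were measured well and shared a high value in tumour 3. Zeb1 had 10.8, 13.1, 19.4 and 10.7 CPM in tumours 1 to 4, and its chi-square was 30.9 (adjusted p 2.08e-06). Zeb2 had 17.1, 16.8, 32.5 and 21.3 CPM, and its chi-square was 61.7 (adjusted p 9.5e-13). Tumour 3 exceeded the next tumour by 1.48-fold for Zeb1 (95% interval 1.15 to 1.90) and by 1.52-fold for Zeb2 (1.26 to 1.85). Without tumour 3 neither passed the test, with adjusted p 0.301 for Zeb1 and 0.081 for Zeb2, and the SD of log2 CPM fell from 0.40 to 0.17 and from 0.44 to 0.19. In tumour 1, which had the most Cdh2, neither gene was raised.

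The Snail genes were near the limit of detection. Snai1, which carries 1 E-box in its own promoter, had 18, 9, 17 and 6 counts in tumours 1 to 4, or 1.98, 1.05, 2.10 and 0.714 CPM. The highest tumour was 2.94-fold above the lowest, with a wide interval of 1.11 to 9.11, and the spread did not pass the test (adjusted p 0.0555; 0.0448 with library size only). Snai2 had 11, 10, 12 and 12 counts, or 1.16 to 1.48 CPM, and no difference between tumours was detectable at this depth (adjusted p 0.930). Its highest tumour was 1.27-fold above its lowest, with an interval of 0.505 to 3.29.

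Twist1, a basic helix-loop-helix factor of mesoderm, had 0 counts in all 4 tumours. With the limit of 3 counts this allows up to 0.330 to 0.370 CPM per tumour. Per kilobase the observed levels of Snai2 and Zeb1 were 2.69 and 8.42 times this limit or more in each tumour. The counting error of their own counts is not included.

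Leukocyte markers were also higher in tumour 3, where Vim and the Zeb genes had their high values. All 6 pan-leukocyte markers were highest there, where 30.2% of all genes tested were highest. The summed CPM of these markers was 147, 176, 360 and 205 in tumours 1 to 4. The sum of 6 alveolar macrophage markers was 167, 197, 922 and 427.5 CPM, with 5 of 6 highest in tumour 3. That of 8 macrophage markers was 279, 306, 431 and 304.5 CPM, with 5 of 8 highest in tumour 3 and the other 3, C1qa, C1qb and C1qc, lowest there. Endothelial markers summed to 360.5 CPM in tumour 3 against 276 to 295 elsewhere, with 5 of 8 highest in tumour 3. Smooth muscle and pericyte markers (6 genes) summed to 145.4 CPM against 112 to 115.5, and much of that sum was Rgs5 (57.3, 64.1, 90.95 and 81.2 CPM in tumours 1 to 4). Des, Pdgfrb and Cspg4 of that list were highest in tumour 1. Lists of epithelial cells had their highest sums in tumour 3 too. Club cell markers summed to 959 CPM there, with 3 of 4 highest in that tumour. Alveolar type 1 markers summed to 2089 CPM, with 3 of 6 highest in tumour 3 and 3 in tumour 4. The part of any of these cell types in the values of Vim, Zeb1 and Zeb2 was not tested. In the same tumour Epcam was lowest, at 218 CPM. Cdh1 was almost level, with 846 CPM there and 842 CPM in tumour 1, its lowest.

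Markers of cells that can carry Cdh2 were set beside it, and their part in its level was not tested. The sum of 5 mesothelial markers was 38.3, 20.2, 19.6 and 112 CPM in tumours 1 to 4, most of it from Msln alone (33.7, 15.8, 18.4 and 108.8 CPM). Of the others, Upk3b had 2.53, 2.90, 0.864 and 1.31 CPM, Lrrn4 had 12, 6, 3 and 5 counts, and Wt1 and Muc16 had at most 6 counts in any tumour. Of 6 neuroendocrine markers, 5 had at most 3 counts in every tumour, and Chga and Resp18 had 0 counts throughout. Fibroblast markers (8 genes) had their highest sum in tumour 1, 749.5 CPM, against 481.5, 722 and 413 CPM in tumours 2 to 4. Of this sum Pdpn made up 218.3, 85.7, 222.1 and 111.6 CPM in tumours 1 to 4. Like the alveolar type 1 sum, Pdpn was highest in tumour 3 and lowest in tumour 2. The fibroblast markers differed among themselves as described for Fn1. Tumour 1 had the lowest sums for alveolar type 2 markers (32860 CPM), for 4 club cell markers (87.3 CPM against 573 to 959) and for pan-leukocyte markers. Some single markers had a tumour apart on the low side. It was tumour 1 for Scgb1a1 (9.79 CPM against 450 to 736), Lamp3 (420 CPM against 1867 to 2515), Slc34a2 and Dnah5, and tumour 4 for S100a8. Sums for the remaining lists in tumours 1 to 4 were 2.97, 4.76, 20.4 and 4.04 CPM for T cells, 9.79, 19.4, 50.7 and 23.4 CPM for B and plasma cells and 30.3, 47.0, 66.6 and 27.5 CPM for neutrophils. They were 1735, 1141, 2089 and 1987 CPM for alveolar type 1 cells and 261, 311, 310 and 292 CPM for ciliated cells. Most of the ciliated sum was Tubb4b (243.7, 294.1, 276.2 and 261.4 CPM in tumours 1 to 4). Foxj1 had 2, 22, 16 and 10 counts and Dnah5 had 0, 20, 36 and 29, whereas Ccdc39 was highest in tumour 1 with 47, 26, 34 and 36 counts.

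**Figure D4:**
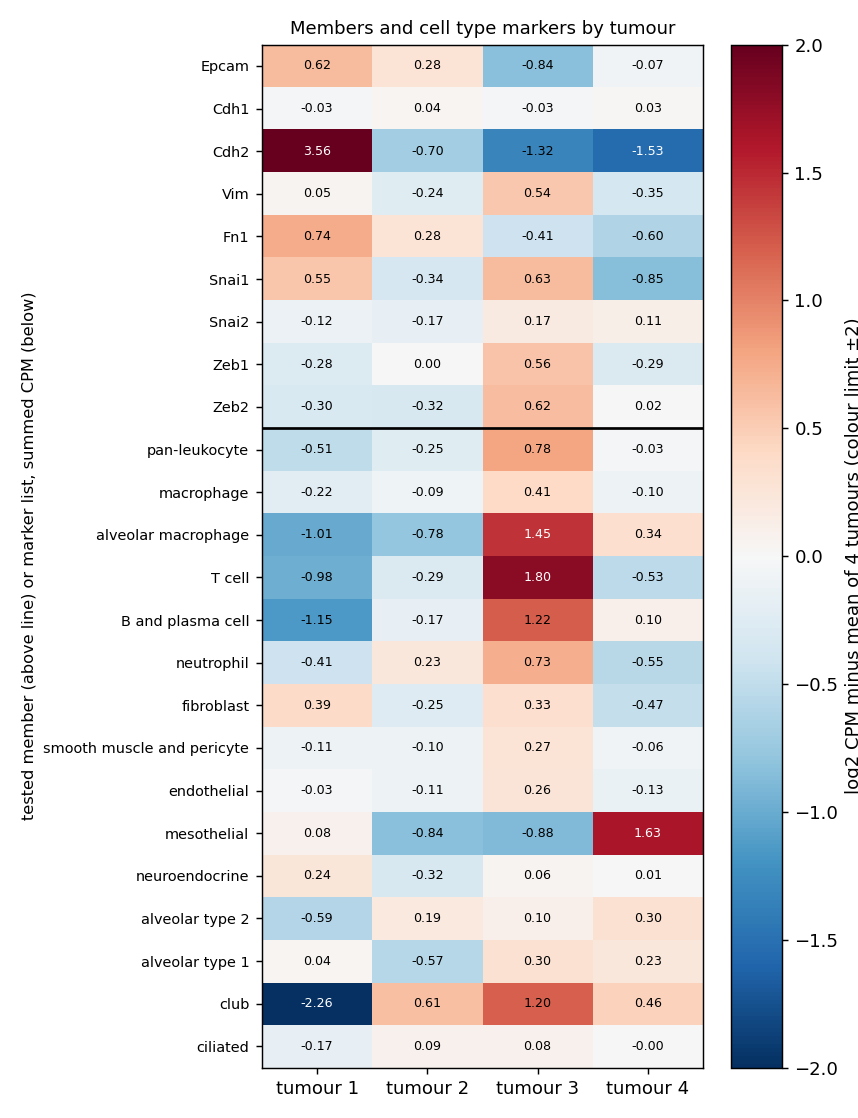
Log2 CPM of the 9 tested members (above the line) and of the summed CPM of 15 cell type marker lists (below it) in tumours 1 to 4, each minus its mean over the 4 tumours. Red is above and blue below that mean. Cdh2 in tumour 1 (3.56) is the strongest colour among the members. Vim (0.54), Zeb1 (0.56) and Zeb2 (0.62) share their red in tumour 3 with the leukocyte lists and with other lists, club cells (1.20) among them.

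Genes that work with the members were described as lists. Over the 9 lists of 74 genes, 68 genes averaged 1 CPM or more and 64 of these (94.1%) varied beyond counting noise, beside 76.7% of all genes tested. These shares depend on abundance, because small differences pass the test more easily in genes with many counts. Among all genes averaging 10 CPM or more, 8756 of 10269 passed. Without tumour 3 the number of list genes that varied was 50, and that of all genes also fell, from 10905 to 8807. Their median SD of log2 CPM was 0.30, close to the 0.29 of all genes, and no gene of these 9 lists had a tumour apart.

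The catenins, which tie cadherins to the actin cytoskeleton, were among the steadiest (median SD of log2 CPM 0.15), although 4 of 4 passed the test. Ctnnb1, or beta-catenin, had the highest mean, 1527 CPM, and Ctnnd1, or p120-catenin, ranged only from 638 to 677 CPM. Jup, or plakoglobin, was the lowest and the most variable, with 191, 183, 113 and 136 CPM in tumours 1 to 4, and it was lowest in tumour 3 as Epcam was.

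Epithelial surface, junction and keratin genes varied in 16 of 16 cases, and 10 of 16 were highest in tumour 1, where 31.4% of all genes tested were highest. Krt18 had the highest mean (852.5 CPM), with 1269, 640, 748 and 753 CPM in tumours 1 to 4. Krt19, a keratin of simple epithelia, was the most variable, with 457 CPM in tumour 1 and 154 to 187 CPM in the others. Crb3, a polarity gene, had the lowest mean, with 45.3, 30.2, 27.4 and 35.1 CPM. None of the 16 was lowest in tumour 1, where 30.4% of all genes tested were lowest. The tumour with the most Cdh2 was therefore also the one in which most of these 16 genes, with Epcam, were highest. This did not hold for the 10 epithelial transcription and splicing factors. Of those, 1 was highest in tumour 1 and 6 in tumour 4, beside 31.4% and 18.0% of all genes tested.

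Of the epithelial transcription and splicing factors, 7 of 10 varied beyond counting noise, a share close to the 76.7% of all genes tested. Their median SD of log2 CPM was 0.23, beside 0.29 over all genes tested and 0.25 over genes averaging 10 CPM or more. Esrp1, which sets epithelial splice forms, had the highest mean, with 196, 188, 141 and 155 CPM in tumours 1 to 4. Ovol2, an epithelial zinc finger factor, was the lowest and the most variable on the log2 scale, with 1.32, 1.16, 0.617 and 1.78 CPM, and its spread did not pass the test (adjusted p 0.226). Of these 10 genes, 7 were lowest in tumour 3, where 32.5% of all genes tested were lowest.

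Of 9 further EMT transcription factors, 4 were tested and all 4 varied. Tcf4, an E-protein, was the most abundant with 63.2 CPM on average, and Tcf3, another E-protein, had 49.2, 35.0, 17.9 and 29.1 CPM in tumours 1 to 4. Snai3 had the largest SD of log2 CPM in this list (0.61, shared with Tcf3 when rounded), with 3.08, 1.63, 1.11 and 2.26 CPM. Gsc had 0 counts in all tumours, and Twist2 and Foxc2 had at most 3 counts in each. Id proteins, which block the E-proteins, varied in 3 of 3 tested genes, with Id2 the highest (517.5 CPM on average), Id3 the most variable (51.3, 27.0, 32.7 and 30.3 CPM) and Id4 the lowest (0.360 CPM).

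Co-repressors that Snail and Zeb proteins recruit were present at moderate levels, and 8 of 8 varied. Hdac2 had the highest mean (135 CPM), and Ctbp2, a partner of Zeb proteins, had the lowest mean and the largest spread, with 86.5, 46.4, 39.2 and 52.1 CPM in tumours 1 to 4. Genes of Snail protein turnover varied in 5 of 5 cases with a median SD of 0.21. Of these the ubiquitin ligase subunit Fbxl5 was the highest (279 CPM on average), Btrc the lowest (24.9 CPM) and Fbxl14 the most variable (29.5, 44.0, 29.0 and 34.7 CPM).

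Fibronectin receptors and partners varied in 8 of 8 cases. Of these, 5 were highest in tumour 3, unlike Fn1, beside 30.2% of all genes tested. Itgb1, the beta chain shared by many integrins, had the highest mean, with 846, 914, 1248 and 894 CPM in tumours 1 to 4. Itga4, an integrin of leukocytes, was the lowest, with 4.401, 5.34, 9.87 and 5.95 CPM, and Itga8 was the most variable, with 12.8 CPM in tumour 3 and 4.07 to 5.59 CPM in the others. Itga5, the classical fibronectin receptor, had 30.3, 20.4, 27.3 and 16.1 CPM.

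Mesenchymal structural genes varied in 9 of 10 cases. Of the 10, 6 were highest in tumour 3 and the other 4 in tumour 1, beside 30.2% and 31.4% of all genes tested. Sparc, a matrix glycoprotein, had the highest mean, with 1095, 997, 804.5 and 958 CPM in tumours 1 to 4. Acta2, the smooth muscle actin, was the most variable, with 300, 99.0, 372 and 106 CPM, so that tumours 1 and 3 lay above tumours 2 and 4. Fap, a fibroblast surface protease, had the lowest mean and did not pass the test (1.65, 1.39, 0.617 and 0.714 CPM; adjusted p 0.135).

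The genes most like each member were sought among those averaging 10 CPM or more, by the root mean square distance between log2 CPM values centred on their mean over the 4 tumours. A small distance over 4 values was common for a level gene, and 1145 genes lay within 0.1 of Cdh1. The nearest were Slc39a9 and Senp1 for Cdh1, Pelp1 (distance 0.0105) and Epb4.1l2 (0.0273) for Epcam, Pdp1 and Gcnt2 for Vim, Mpc2 and Rpl27a for Zeb1, and Gm13416 for Zeb2. Fn1 had 1 gene within 0.1, Tnfaip8 (0.0583), with 58.0, 38.1, 25.8 and 22.4 CPM in tumours 1 to 4, followed by Gbp2 (0.113). Cdh2, whose mean CPM of 9.59 was just below 10, had 0 genes within 0.5. The nearest to it, named after the values were seen, was Nrk at 0.591, with 127, 18.5, 4.94 and 7.14 CPM, followed by Slc4a11 and Slc38a1.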

How the data were processed

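Polyadenylated RNA of 4 macrodissected, dissociated lung tumours was sequenced by the authors as single-end reads of 85 nt from a stranded kit. The submitters' processing notes name bcl2fastq 2.17, cutadapt 1.4.2 (the methods give another version), HISAT2, featureCounts 1.4.4 and edgeR, with mm10 as the genome build; the strand setting and the annotation release are not given in the sources used here. The deposited raw counts per Ensembl gene carry no normalization, and 156068 of 156068 values of the single-tumour tables equalled the combined table. The authors also deposited log2 normalised counts (TMM and voom), used here as an alternative only.

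CPM was computed with TMM factors of edgeR 4.0.16 in R 4.3.3, and log2 CPM after adding 0.5 to counts and 1 to effective library sizes. The 14225 genes averaging 1 CPM or more entered a chi-square test that set their 4 counts against Poisson expectations (3 degrees of freedom, Benjamini-Hochberg adjustment, threshold 0.05), which was tested on simulated data. Pairs of members were compared within tumours by flipping signs in an exact permutation test, which was two-sided. Pairs with Twist1 were left out because it had no count. A tumour was called apart where its gap over the range of log2 CPM exceeded Dixon's 95% critical value for 4 values. Ratios carry exact 95% Clopper-Pearson intervals of counts. Positions and lengths are those of GENCODE M21, in which 37693 of 39017 gene IDs were found; 4 list genes were matched by identifier. The longest Vim transcript is a retained intron form (2926 nt). Named list genes are those of highest and lowest mean CPM and of largest SD among tested genes, any gene with a tumour apart, and the nearest 2 genes to each member averaging 10 CPM or more; further list genes were chosen after their values were seen, and some items are not reported here. Alternatives were DESeq2 1.42.0 size factors, library size only, other filters, 2 added to counts, other gene lengths, and each tumour left out. The members and lists were chosen with earlier results of these data known.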

Additional observations from a re-analysis of the deposited data

Results flagged for a closer look

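Of 102 results examined for a tumour far from the others (the tested members, their pairs, the tested genes of the pathway lists and the marker sums), 3 passed the limit, where normal noise passes in about 1 of 20. Cdh2 had a gap of 0.837 of its range, with tumour 1 high at 34.6 CPM against 0.952 to 1.74 CPM. The log2 difference of Cdh1 minus Cdh2 had a gap of 0.842, with tumour 1 low, and rests on the same counts. The summed CPM of smooth muscle and pericyte markers had a gap of 0.882, with tumour 3 at 145.4 CPM against 112 to 115.5 CPM. Rgs5 made up 90.95 CPM of it in tumour 3, and 3 of the 5 tested markers (Des, Pdgfrb and Cspg4) were highest in tumour 1.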

How the results depend on the processing

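No paired analysis was possible because the design has 1 group. The number of members varying beyond counting noise was 7 with TMM, with DESeq2 size factors, with library size only and with no filter, 6 among genes averaging 10 CPM or more, and 5 to 7 when 1 tumour was left out. Over all genes tested the number was 10905, and it was 8756 at 10 CPM and 8807 to 10244 with a tumour left out. Of the differences between members, Epcam minus Cdh1 turned from -0.03 to 0.24 without tumour 3 and lay between -0.25 and 0.24 over the tumours left out. Zeb2 minus Zeb1 turned from 0.03 to -0.07 without tumour 4 (range -0.07 to 0.14) and to -0.27 with the union of exons as length. Cdh2 minus Snai1 turned from -0.50 to 0.15 without tumour 3 (range -1.51 to 0.15) and to 1.07 with no length correction, since the lengths differ; the cause of the turns without a tumour was not tested. The other pairs kept their direction under the alternatives run. With the longest protein-coding transcript as length, an alternative chosen after seeing the data, Fn1 minus Vim was 0.52 instead of 0.94, whereas it was 1.14 with the union of exons and 2.44 with no length correction. With no length correction Cdh1 minus Fn1 was 0.13 instead of 1.04 and Epcam minus Cdh1 was -1.15 instead of -0.03. With 2 added to each count the mean log2 CPM of Snai2 moved from 0.46 to 0.63 and that of Twist1 from -4.10 to -2.10, by construction. Depth limits Snai1, Snai2 and Twist1, with 50, 45 and 0 counts over the 4 tumours.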
